A study of Sus scrofa with 12 samples.

Results

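The cohesin and shugoshin transcripts of porcine oocytes were followed through in vitro maturation (IVM) as a set of 10 genes out of 31908 gene identifiers in the quantification. The set was listed by name: the kleisins REC8 and RAD21, the SMC subunits SMC1B and SMC3, the SA subunit STAG3, the loader NIPBL, the releasing factors WAPL and PDS5B, and the protectors SGO1 and SGO2. All 10 names were found, and 8 of them had a mean of at least 1 FPKM (fragments per kilobase of transcript, scaled to the mapped fragments of each library) over all libraries, whereas REC8 and STAG3 did not. The 12 libraries held oocytes from cumulus-oocyte complexes of prepubertal gilts, matured for 0h, 22h or 46h, with 4 libraries at each time and 20 denuded oocytes pooled in each library. Time in maturation medium was the only labelled difference between the groups; the series' design text gives another hour for the middle stage than the sample labels, which are used here. Ovaries came from a slaughterhouse, and nothing stated that the 4 libraries of a stage came from separate animals, so p-values measure only the spread between these samples, which may be technical. Without added reference RNA, a share of the sequenced mRNA and an amount of mRNA per oocyte cannot be told apart. The cDNA was primed with oligo-dT, so a change in poly(A) tail length and a change in transcript number cannot be told apart either.

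Cohesin is a ring that holds sister chromatids together. Its body is formed by a pair of SMC proteins closed by a kleisin, and an SA (STAG) subunit binds the kleisin. Germ cells replace most subunits with meiotic versions: REC8 for RAD21, SMC1B for SMC1A, and STAG3 for STAG1 and STAG2, while SMC3 is shared. In the mammalian oocyte the ring is loaded in the fetal ovary and has to last until the meiotic divisions. NIPBL with its partner MAU2 loads cohesin, WAPL with the PDS5 proteins opens the ring, and separase cleaves the kleisin at anaphase. Shugoshins recruit protein phosphatase 2A (PP2A) to the centromere and keep centromeric REC8 from cleavage at the first meiotic division.

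The libraries held transcripts of most oocyte markers listed. Of 15 oocyte markers, 13 were matched, and 11 of these were at 1 FPKM or more in every library. The others were DDX4, at 0.38 to 0.99 FPKM at 46h, and ZAR1, at 0.5 to 1.16 FPKM at 46h. Of 18 cumulus and granulosa cell markers, 15 were matched; 13 of these stayed under 1 FPKM in every library, and INHA, KRT18 and LHCGR were at 0 throughout. The summed level of the 15 matched markers lay between 5.99 and 17.3 FPKM (0h), 6.46 and 8.37 FPKM (22h), and 7.16 and 13.1 FPKM (46h). Most of it came from FST and STAR, the 2 markers above 1 FPKM in every library. Without these 2, left out because of their level, it lay between 0.160 and 1.17 FPKM at 0h. The same sum lay between 0.200 and 0.760 FPKM at 22h, and 0 and 0.280 FPKM at 46h. The share of FPKM from the mitochondrial genome moved with time, and lay between 1.79% and 3.76% (0h), 8.06% and 12% (22h), and 12.8% and 16.7% (46h). Genes at 1 FPKM or more numbered 6939 to 7895, 6682 to 7135 and 5819 to 6076. The part of these shifts in the results was not tested apart from the scalings given below. The fourth 0h library stood apart, with correlations of 0.934 to 0.970 with the other 0h libraries against 0.979 to 0.988 among those. Member results whose call changed without it are given in both forms.

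The 3′ ends of the transcripts are shown first because priming from poly(A) reads the RNA from there, and because stored oocyte mRNAs are known to change tail length through cytoplasmic polyadenylation elements near the poly(A) signal. The last 100 bases of the RefSeq transcript models on Sscrofa11.1 were searched, on the transcript strand only, for the elements TTTTAT and TTTTAAT, and the last 50 bases for the signals AATAAA and ATTAAA. Each run below is 30 bases of 3′ UTR, 5′ to 3′, with the poly(A) signal and any element in capitals; the SMC1B model held neither, and the end of the model is shown in lower case.
SGO1: taaagtttttcatttgtaaagagcAATAAA
SGO2: cagtagctgttagccttttaaccaAATAAA
SMC3: tatattgcctcTTTTATagcttcaATTAAA
SMC1B: ttagctctgaaaacatagttttaacttcca
RAD21: tgctatgttatgtataacttttctAATAAA
STAG3: gttttgtgcacttctggttagctgAATAAA
REC8: gctctcagctactgttcaagcgaaAATAAA

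The SGO1 run lies at chr13:7137905-7137934 on the minus strand, and the SGO2 run at chr15:104150675-104150704 on the plus strand. SMC3 lies at chr14:121008875-121008904 (plus), SMC1B at chr5:4067119-4067148 (plus) and RAD21 at chr4:21802405-21802434 (plus). STAG3 lies at chr3:8211850-8211879 (plus) and REC8 at chr7:75118757-75118786 (minus). A poly(A) signal was present in 9 of the 10 genes, against 59.4% of 19535 protein-coding genes. A polyadenylation element was present in 1 of 10, SMC3, which held 3 copies of TTTTAT, against 15.1% of all protein-coding genes. The members' models had 3′ UTRs of 129 to 2958 bases. Models of all genes were not filtered for having a 3′ UTR, so the shares are not matched for how complete the models are. A match describes these letters in these windows and is not a functional site. SGO1 and SGO2, the members called at 46h, held no such element in the window searched. SGO2 has 5 models, and the SGO1 3′ UTR is 1141 bases long. Other models, other parts of the 3′ UTR and other forms of the element were not searched.

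The levels of the members spanned several orders of magnitude, and the order was nearly the same at each stage. SMC1B was highest at every stage, with a mean that ranked 425 among all identifiers. By the mean over all 12 libraries SGO2 ranked 742, SMC3 812, SGO1 1350, WAPL 1937, NIPBL 2762, RAD21 3902, PDS5B 5060, STAG3 8271 and REC8 14667. SMC1B did not overlap with the gene next to it at any stage. SMC3 and SGO2 overlapped at every stage, with SMC3 above SGO2 in 4 of 4 libraries at 22h and SGO2 above SMC3 in 4 of 4 libraries at 46h. SGO1 and WAPL overlapped at 0h and 22h and were separate at 46h, where SGO1 was higher. RAD21 and PDS5B were separate at 0h and 22h and overlapped at 46h, at 3.87 and 3.75 FPKM. STAG3 and REC8 were last at every stage, without overlap with their neighbours.

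**Figure D1:**
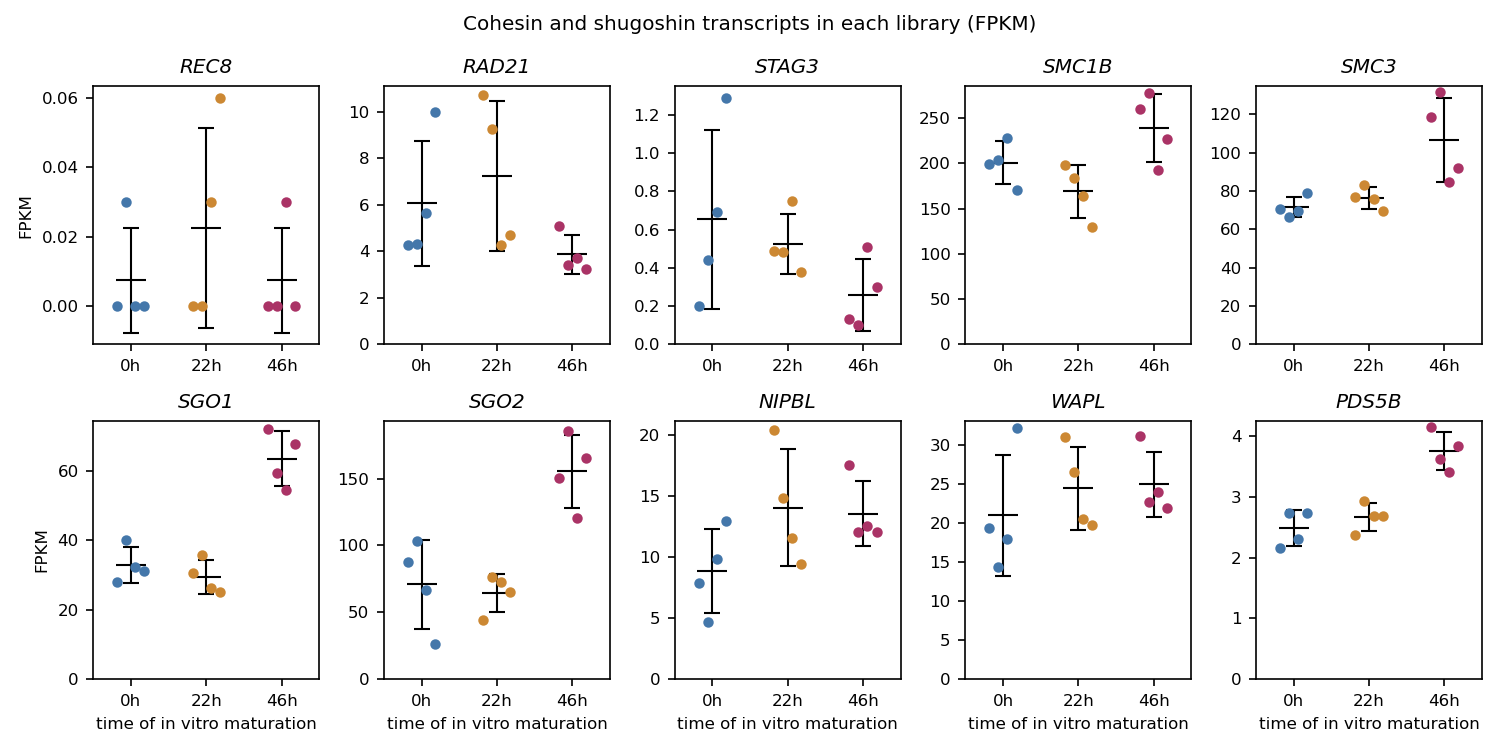
FPKM of each gene (vertical axis) in the 4 libraries at 0h, 22h and 46h (horizontal axis); points are libraries, and bars are the mean and SD. SGO1, SGO2, SMC3 and PDS5B have all 46h points above all 0h and 22h points, and the REC8 axis ends below 0.1 FPKM.

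SGO1 and SGO2 were the members that changed past both thresholds. These were an adjusted p under 0.05 and a fold change over 1.5, from limma on log2(FPKM + 1) with Benjamini-Hochberg adjustment over 7013 genes. Both were higher at 46h than at 22h and at 0h, with no called change between 0h and 22h. REC8 and STAG3, under the filter, were not tested in limma. None of RAD21, the SMC subunits, the loader and the releasing factors passed both thresholds with the data as deposited. Some did under other scalings or with a library left out, as given with each gene. Calls numbered 0 of 8 tested members at 22h against 0h, where 26.7% of all genes were called (7.84% higher and 18.9% lower) and 1 member had an unadjusted p under 0.05. They numbered 2 higher and 0 lower at 46h against 22h, where 9.87% of all genes were called higher and 32.6% lower. They were again 2 higher and 0 lower at 46h against 0h, where the shares were 16.8% and 39.1%. The comparisons share libraries and are therefore not independent.

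SGO1 (ENSSSCG00000011207), the mitotic shugoshin, which also has roles at centromeres in meiosis, measured 27.80, 40.02, 32.27 and 31.13 FPKM in the 0h libraries and 30.45, 35.75, 26.15 and 25.10 FPKM at 22h. At 46h it measured 71.93, 59.40, 54.38 and 67.60 FPKM. Every 46h library was above every earlier library, and the 0h and 22h libraries overlapped. The means were 32.8 ± 5.17, 29.4 ± 4.85 and 63.3 ± 7.91 FPKM (SD, n = 4 each), a ratio of means of 2.16 at 46h against 22h. The limma log2 change was 1.09 (95% interval 0.73 to 1.45, adjusted p = 0.000110) at 46h against 22h and 0.93 (0.57 to 1.29, adjusted p = 0.000236) at 46h against 0h. At 22h against 0h it was -0.16 (-0.52 to 0.21, adjusted p = 0.509). The change after 22h exceeded the change up to 22h by 1.24 on the log2 scale (SE 0.292, limma adjusted p = 0.00750). SGO1 was the 1 member of the 8 called in this test of the difference, in which 21.0% of all genes were called, 4.73% in that direction.

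SGO2 (ENSSSCG00000016092), the shugoshin that protects centromeric REC8 in mouse oocytes, measured 87.77, 103.11, 66.52 and 26.32 FPKM at 0h. It measured 43.99, 76.34, 72.77 and 64.80 FPKM at 22h and 150.36, 185.20, 120.19 and 165.46 FPKM at 46h. The lowest 46h library was above the highest earlier library, and the fourth 0h library was the lowest of all. The means were 70.9 ± 33.3, 64.5 ± 14.5 and 155 ± 27.4 FPKM (SD, n = 4 each). The limma log2 change was 1.27 (0.54 to 2.0, adjusted p = 0.00689) at 46h against 22h and 1.26 (0.54 to 1.99, adjusted p = 0.00479) at 46h against 0h. Without the fourth 0h library the latter was 0.85 (adjusted p = 0.00410). At 22h against 0h the interval of the log2 change ran from -0.73 to 0.73. The late change exceeded the early change by 1.27 (SE 0.589), which was not called (limma adjusted p = 0.143) with all libraries and was called without the fourth 0h library, at 1.68 (adjusted p = 0.00365).

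The balance between the shugoshins did not differ detectably. The ratio of SGO2 to SGO1 had a median of 2.32 at 0h, 2.36 at 22h and 2.33 at 46h. Over libraries it lay between 0.845 and 3.16 (0h), 1.44 and 2.78 (22h), and 2.09 and 3.12 (46h), so the stages overlapped. Its mean log2 difference was 0.17 at 46h against 22h (exact two-sided permutation p = 0.60) and 0.33 at 46h against 0h (p = 0.629, exact permutation). These were among 18 ratio comparisons, in which the smallest p that 4 against 4 libraries can give is 0.0286.

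**Figure D2:**
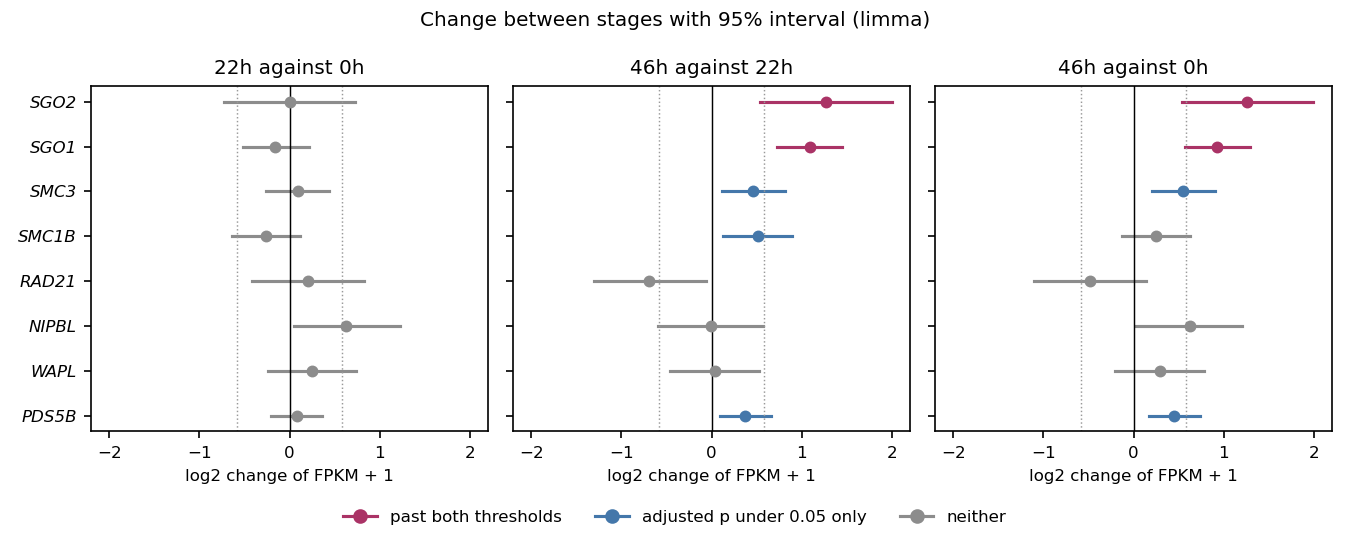
Log2 change of FPKM + 1 (horizontal axis) of the 8 tested genes (vertical axis) in each comparison of stages; points are limma estimates, bars 95% intervals, and dotted lines the fold change of 1.5. SGO1 and SGO2 lie past both thresholds at 46h against 22h and against 0h, and no gene does at 22h against 0h.

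The SMC subunits did not pass the fold threshold with the data as deposited. An adjusted p under 0.05, whatever the fold, was reached by 5 of 8 members at 46h against 22h and by 4 of 8 at 46h against 0h, all higher, where 13.2% and 20.8% of all genes did so in that direction. Besides the shugoshins these were SMC3 and PDS5B in both comparisons and SMC1B at 46h against 22h. The median log2 change of the 8 tested members was 0.42 at 46h against 22h and 0.50 at 46h against 0h, beside -0.26 and -0.25 over all genes tested. At 22h against 0h it was 0.09, with a median of all genes within 0.01 of 0.

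SMC1B (ENSSSCG00000032971), the meiotic partner of SMC3, measured 199.61, 204.03, 228.28 and 170.41 FPKM at 0h, 198.29, 183.55, 164.47 and 129.50 FPKM at 22h, and 259.99, 278.16, 193.08 and 227.13 FPKM at 46h. The 46h libraries included the highest values but overlapped with both earlier stages. The means were 201 ± 23.7, 169 ± 29.7 and 240 ± 37.5 FPKM (SD, n = 4 each). The log2 change at 46h against 22h was 0.51 (0.13 to 0.89, limma adjusted p = 0.0291), under the fold threshold. It was called there at 0.86 after median-of-ratios scaling, 0.65 after quantile normalization, 0.59 without the first 22h library and 0.60 without the third 46h library. It was 0.25 at 46h against 0h (-0.13 to 0.63, limma adjusted p = 0.236), which median-of-ratios scaling made 0.65 and called, and -0.26 at 22h against 0h (-0.64 to 0.12, limma adjusted p = 0.289). Its late change exceeded the early change by 0.76 (limma adjusted p = 0.0952), and by 0.84 (limma adjusted p = 0.0446) without the fourth 0h library.

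SMC3 (ENSSSCG00000010625), the SMC subunit that all cohesin rings share, measured 70.64, 66.56, 69.48 and 78.88 FPKM at 0h, 77.04, 83.31, 75.58 and 69.24 FPKM at 22h, and 118.54, 131.43, 84.63 and 91.71 FPKM at 46h. All 46h libraries were above all earlier ones, although the lowest 46h library was close to the highest 22h library. The means were 71.4 ± 5.28, 76.3 ± 5.77 and 107 ± 22.1 FPKM (SD, n = 4 each). The log2 change was 0.46 at 46h against 22h (0.11 to 0.81, limma adjusted p = 0.0318) and 0.55 at 46h against 0h (0.20 to 0.90, limma adjusted p = 0.00886). The latter passed both thresholds without the fourth 0h library (0.60, limma adjusted p = 0.00672), without the third (0.65) or the fourth (0.62) 46h library, and with TPM without mitochondrial genes (0.64). Median-of-ratios scaling gave 0.95 and quantile normalization 0.95 against 0h, with 0.81 and 0.72 against 22h, all past both thresholds. SMC1B exceeded SMC3 in every library, with a ratio from 1.87 to 3.29 and a median of 2.24 over the 12 libraries. Groups that did not overlap, as for SGO1, SGO2, SMC3 and PDS5B, made up 13.2% of all genes in the higher direction at 46h against 22h and 18.2% at 46h against 0h.

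The kleisins were scarce next to the SMC subunits. REC8 (ENSSSCG00000002001), the meiotic kleisin that shugoshin protects, was above 0 in 4 of 12 libraries, at 0.03 FPKM in the second 0h library, 0.03 and 0.06 FPKM in the third and the fourth 22h libraries, and 0.03 FPKM in the third 46h library. It was listed at 0 in the other 8 libraries, and no stage was separate from another (exact two-sided permutation p = 0.714, 0.714 and 1.0 for 22h against 0h, 46h against 22h and 46h against 0h). A listed 0 is a value of the quantification and does not show that the transcript was absent.

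RAD21 (ENSSSCG00000006014), the kleisin of mitotic cells, measured 4.28, 4.31, 5.66 and 10 FPKM at 0h and 10.73, 9.27, 4.26 and 4.71 FPKM at 22h. At 46h it measured 5.09, 3.43, 3.71 and 3.26 FPKM. The highest values were the fourth 0h library and the first and the second 22h libraries, and all stages overlapped. The means were 6.06 ± 2.70, 7.24 ± 3.24 and 3.87 ± 0.833 FPKM (SD, n = 4 each). The log2 change was -0.69 at 46h against 22h (-1.31 to -0.06, limma adjusted p = 0.0644) and -0.48 at 46h against 0h (-1.10 to 0.14, limma adjusted p = 0.163). The fall at 46h against 22h passed both thresholds in 6 alternatives. These were TPM, at -0.79 (limma adjusted p = 0.0293), TPM without mitochondrial genes, a fit of those stages alone, and leaving out the fourth 0h library (-0.69, limma adjusted p = 0.0305), the third 22h library (-0.87) or the fourth 22h library (-0.83). It was -0.17 after quantile normalization and -0.49 without the first 22h library. The change at 46h against 0h was -0.24 without the fourth 0h library (limma adjusted p = 0.438), and its direction depended on scaling, at 0.19 after quantile normalization. Per unit length, SMC3 exceeded RAD21 by 7.89 to 16.5 times in the 0h libraries, 7.18 to 17.7 times in the 22h libraries and 22.8 to 38.3 times in the 46h libraries.

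STAG3 (ENSSSCG00000007650), the meiotic SA subunit, measured 0.20, 0.44, 0.69 and 1.29 FPKM at 0h, 0.49, 0.48, 0.75 and 0.38 FPKM at 22h, and 0.13, 0.10, 0.51 and 0.30 FPKM at 46h. The fourth 0h library was the highest and was the only library above 1 FPKM, and the stages overlapped. The difference in mean log2(FPKM + 1) was -0.28 at 46h against 22h (exact two-sided permutation p = 0.114) and -0.36 at 46h against 0h (exact permutation p = 0.143). At 22h against 0h it was -0.08 (exact permutation p = 0.771).

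NIPBL (ENSSSCG00000016842), the cohesin loader, measured 7.89, 4.72, 9.88 and 12.97 FPKM at 0h, 20.40, 14.83, 11.58 and 9.42 FPKM at 22h, and 17.55, 12.06, 12.59 and 12.06 FPKM at 46h. The fourth 0h library was the highest of its stage and lay within the ranges of both later stages. The means were 8.87 ± 3.46, 14.1 ± 4.78 and 13.6 ± 2.67 FPKM (SD, n = 4 each). The log2 change was 0.63 at 22h against 0h (0.05 to 1.22, limma adjusted p = 0.0931) and 0.62 at 46h against 0h (0.03 to 1.20, limma adjusted p = 0.0617), neither of which was called. Without the fourth 0h library they were 0.82 (limma adjusted p = 0.0258) and 0.81 (limma adjusted p = 0.0154), and both were then called. Both were also called after median-of-ratios scaling, quantile normalization and TPM without mitochondrial genes, at 0.67, 0.78 and 0.73 for 22h and at 0.99, 1.22 and 0.72 for 46h. Without the first 22h library the 46h change was called at 0.62 (limma adjusted p = 0.0453).

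WAPL (ENSSSCG00000010357), which releases cohesin from chromatin, measured 19.35, 14.40, 18.04 and 32.20 FPKM at 0h. It measured 31.03, 26.57, 20.56 and 19.77 FPKM at 22h and 31.17, 22.73, 24.04 and 21.97 FPKM at 46h. The fourth 0h library was the highest of all, and every stage overlapped with the others. The means were 21.0 ± 7.76, 24.5 ± 5.32 and 25.0 ± 4.22 FPKM (SD, n = 4 each), and the 95% interval of the log2 change at 46h against 0h ran from -0.21 to 0.78 around 0.29 (limma adjusted p = 0.294). Without the fourth 0h library the change was 0.51 (limma adjusted p = 0.0343), under the fold threshold. It was 0.67 after median-of-ratios scaling (limma adjusted p = 0.00739) and 0.82 after quantile normalization (limma adjusted p = 0.00433), both past the thresholds.

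PDS5B (ENSSSCG00000009345), a kleisin-bound regulator of both release and cohesion, measured 2.16, 2.73, 2.30 and 2.73 FPKM at 0h and 2.37, 2.93, 2.69 and 2.68 FPKM at 22h. At 46h it measured 4.15, 3.62, 3.40 and 3.84 FPKM, all above the earlier libraries. The means were 2.48 ± 0.294, 2.67 ± 0.230 and 3.75 ± 0.320 FPKM (SD, n = 4 each). The log2 change was 0.37 at 46h against 22h (0.09 to 0.66, limma adjusted p = 0.0310) and 0.45 at 46h against 0h (0.17 to 0.74, limma adjusted p = 0.00853), both under the fold threshold. Median-of-ratios scaling gave 0.65 and 0.75 and quantile normalization 0.87 and 1.13 for these comparisons, all past both thresholds.

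The fourth 0h library thus held the highest 0h value of RAD21, STAG3, WAPL, NIPBL and SMC3 and the lowest 0h value of SGO2 and SMC1B. It also had the most genes at 1 FPKM or more, 7895, and the highest summed cumulus marker level, 17.3 FPKM, of which 0.160 FPKM came from markers other than FST and STAR. The part of these values in the member results was not tested beyond leaving the library out.

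A ratio within a library does not depend on a factor that scales the whole library, apart from the 0.1 FPKM added before log2, which weighs on low genes such as STAG3 and REC8. The 6 ratios between partner transcripts gave 18 comparisons. None passed the adjustment over the 18, in which the lowest adjusted p was 0.171. SMC1B exceeded SMC1A, its somatic counterpart, by 63.6 to 102 times in the 0h, 52.5 to 67.0 times in the 22h and 94.2 to 148 times in the 46h libraries. The 46h libraries were all above the 22h libraries, by 1.08 in mean log2 ratio (exact two-sided permutation p = 0.0286, adjusted p = 0.171). SMC1A itself was at 2.38 ± 0.418, 2.88 ± 0.476 and 1.90 ± 0.192 FPKM (SD, n = 4 each).

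STAG3 made up the smaller side of its ratio. Its ratio to the sum of STAG1 and STAG2, the SA subunits of somatic cells, lay between 0.0452 and 0.266 (0h), 0.0565 and 0.131 (22h), and 0.0116 and 0.0558 (46h). The 46h libraries were below all 22h libraries, whereas the first 0h library, at 0.0452, was below the third 46h library, at 0.0558. With 0.1 FPKM added to both terms the difference in mean log2 ratio was -1.26 against 22h and -1.90 against 0h, each with an exact permutation p of 0.0286 and an adjusted p of 0.171. With 0.01 FPKM added, the difference against 0h was -2.19 (exact permutation p = 0.0571). With 0.1 FPKM added, the exact permutation p was also 0.0571 against 22h without any 1 of the 22h libraries, at differences of -1.40 to -1.03. Against 0h it was 0.0571 without any 1 of the 46h libraries (-2.17 to -1.61). It was the same without the second (-1.92), the third (-1.85) or the fourth (-1.56) 0h library. With 0.1 FPKM added, the 46h libraries did not overlap with those of either earlier stage. Leaving out a library leaves fewer arrangements, so groups that stay separate can still give a p of 0.0571. These p-values therefore cannot show whether the differences rest on 1 library. STAG2 was higher at 46h than at 0h, at 5.61 ± 1.46 against 2.53 ± 0.445 FPKM (SD, n = 4 each), with a log2 change of 0.88 (limma adjusted p = 0.00186). STAG1 was at 3.20 ± 0.666 against 2.07 ± 0.478 FPKM, with a log2 change of 0.45 (limma adjusted p = 0.0248) under the fold threshold, and was called at 0.61 when 0.1 FPKM was added before log2, at 0.75 after median-of-ratios scaling and at 1.13 after quantile normalization.

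The ratio of loader to releaser, NIPBL to WAPL, had medians of 0.405, 0.561 and 0.540 at 0h, 22h and 46h. Its mean log2 difference was 0.43 at 22h against 0h (exact two-sided permutation p = 0.0571). The ratio of PDS5B to PDS5A had medians of 0.312, 0.318 and 0.399, and its log2 difference at 46h against 22h was 0.44 (exact permutation p = 0.0857). In both ratios the stages overlapped in every comparison. The ratio of REC8 to RAD21 was at most 0.0127 in any library, and its log2 value was set mainly by the added constant because REC8 was at or near 0.

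**Figure D3:**
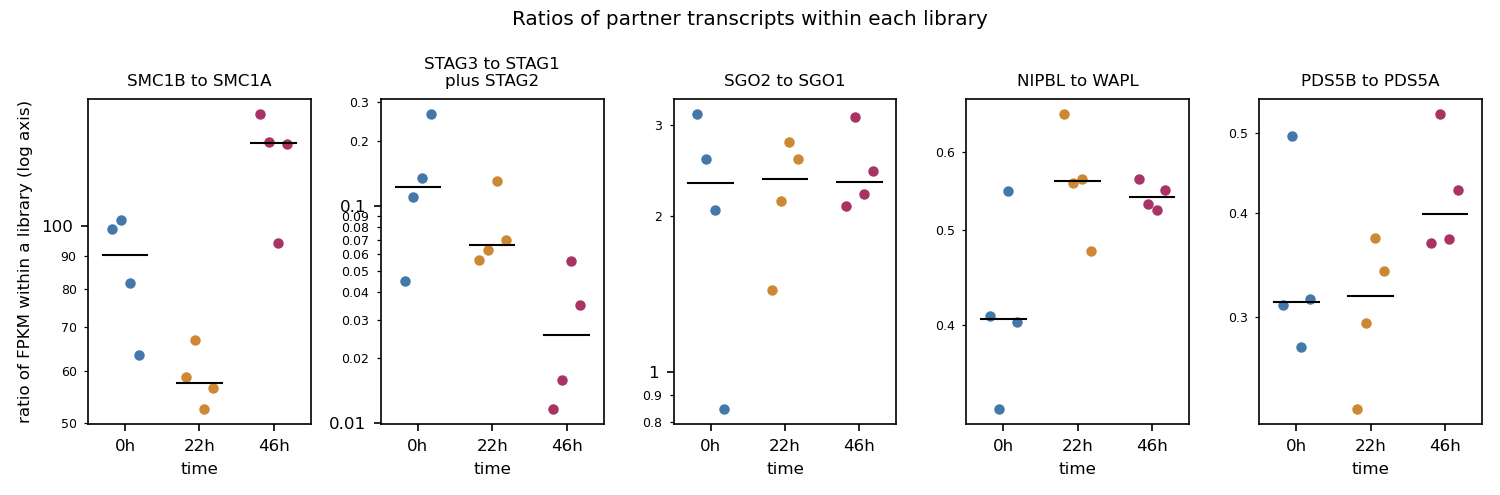
Ratio of FPKM within each library (vertical axis, log scale) at 0h, 22h and 46h (horizontal axis) for 5 pairs of partners; points are libraries and lines are medians. The 46h points of SMC1B to SMC1A lie above all 22h points, those of STAG3 to STAG1 plus STAG2 lie below all 22h points but overlap with 0h, and SGO2 to SGO1 stays at medians of 2.32 to 2.36.

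Partner genes outside the set were listed by function, and 45 of 53 names were matched, 33 of them tested. Called genes numbered 9 at 22h against 0h, 12 at 46h against 22h and 17 at 46h against 0h, beside 26.7%, 42.4% and 55.9% of all genes. Among the general cohesin machinery 7 of 11 names were tested, and 42.9% of these were called at 46h against 0h. At 46h against 0h STAG2 was higher, and MAU2, the partner of NIPBL, and CTCF, which positions cohesin on chromatin, were lower. MAU2 fell from 4.74 ± 1.61 to 1.30 ± 0.422 FPKM (SD, n = 4 each; log2 change -1.29, limma adjusted p = 7.67e-05), and NIPBL had a log2 change of 0.62 that was not called. CTCF fell from 7.26 ± 1.74 to 2.94 ± 0.218 FPKM (SD, n = 4 each; log2 change -1.05, limma adjusted p = 0.000160), a call lost with quantile normalization (-0.36). ESCO1, the acetyltransferase that locks SMC3, had a log2 change of 0.43 (limma adjusted p = 0.0182) under the fold threshold, which it passed after median-of-ratios scaling (0.72) and quantile normalization (1.11). PDS5A and SMC1A had log2 changes of 0.27 and -0.21, both with a limma adjusted p of 0.226, which became 0.63 (called higher) and 0.06 under median-of-ratios scaling and 0.92 (called higher) and 0.47 under quantile normalization. CDCA5 and HDAC8 were under the filter, at 0.20 to 0.87 and 0.26 to 1.43 FPKM, and RAD21L1 and ESCO2 were not matched.

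The list of cleavage and centromeric protection held the partners of the shugoshins, and 11 of 17 names were tested. At 46h against 0h 3 were higher and 3 lower, or 54.5% of those tested beside 55.9% of all genes. Those higher were 3 of the 9 PP2A subunits listed. PPP2CB, a catalytic subunit, rose from 22.4 ± 2.21 to 46.9 ± 8.42 FPKM (SD, n = 4 each; log2 change 1.02, limma adjusted p = 5.77e-05). PPP2R1B, a scaffold subunit, had a log2 change of 0.78 and PPP2R5A, a regulatory subunit of the B56 family that shugoshin binds, of 0.77. These 3 were also called higher at 22h against 0h. There PPP2R5A lost its call without the first 0h or the fourth 22h library. PPP2CB lost its call without the second 0h or the second 22h library. PPP2R5C, also of the B56 family, had a log2 change of -0.44 (limma adjusted p = 0.0381) under the fold threshold. PPP2R5D, of the same family and under the filter, was at 0.25 to 2.11 FPKM at 0h and 0 to 0.20 FPKM at 46h, without overlap. Its exact two-sided permutation p was 0.0286, unadjusted and the smallest that 4 against 4 libraries can give. PPP2CA and PPP2R5E had log2 changes of 0.56 and -0.19 that were not called, although PPP2CA was called after quantile normalization, and PPP2R1A and PPP2R5B were under the filter. Those lower were MEIKIN, the meiotic kinetochore protein that favours protection of REC8, at a log2 change of -1.66, HASPIN, the histone H3 kinase of centromeres, at -1.65, and CSNK1E, a casein kinase, at -1.13. ESPL1, which encodes separase, rose and then fell, with means of 2.66 ± 1.04, 5.47 ± 0.660 and 1.79 ± 0.369 FPKM (SD, n = 4 each). Its log2 changes were 0.86 at 22h against 0h (limma adjusted p = 0.00535) and -1.22 at 46h against 22h (limma adjusted p = 0.000196).

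Condensin and the SMC5/6 complex are relatives of cohesin that compact and repair chromosomes, and 9 of 14 names were tested. At 46h against 0h 5 were higher and 1 lower, where 16.8% of all genes were higher and 39.1% lower. The log2 changes were 1.05 for NSMCE4A, 1.01 for SMC2, 0.93 for NCAPG, 0.76 for SMC6 and 0.76 for NSMCE2. NCAPH, the kleisin of condensin I, lay between 88.75 and 148.37 FPKM in the 0h libraries, 85.77 and 126.03 FPKM in the 22h libraries, and 3.23 and 5.26 FPKM in the 46h libraries. It fell by 4.51 on the log2 scale against 0h (limma adjusted p = 2.44e-10), without overlap. RAD21, the cohesin kleisin, had a log2 change of -0.48 that was not called, and the difference between the genes was not tested.

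The synaptonemal complex and chromosome axis, which assemble along cohesin in fetal prophase, had 6 of 11 names tested. At 46h against 0h 2 were lower, or 33.3% of those tested beside 39.1% of all genes, and 0 higher. SYCP3, an axis protein, had means of 990 ± 67.0, 533 ± 105 and 55.0 ± 10.8 FPKM (SD, n = 4 each) and fell by 4.16 on the log2 scale (limma adjusted p = 1.93e-10). SYCE2, of the central element, had means of 62.7 ± 3.28, 22.1 ± 6.66 and 39.9 ± 3.68 FPKM (SD, n = 4 each), and its log2 change at 46h against 0h was -0.64 (limma adjusted p = 0.00916). That call was lost with median-of-ratios scaling (-0.25), quantile normalization (-0.12), TPM without mitochondrial genes (-0.56) and without the fourth 46h library (-0.58). SYCP2, an axis protein, had a log2 change of 0.55 (limma adjusted p = 0.00468) under the fold threshold. It was called higher with median-of-ratios scaling, quantile normalization and TPM without mitochondrial genes, and also without the first 0h library. SYCP1 and HORMAD1, at 0.13 and 0.06, were called higher with quantile normalization, so the direction of this list depended on scaling.

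**Figure D4:**
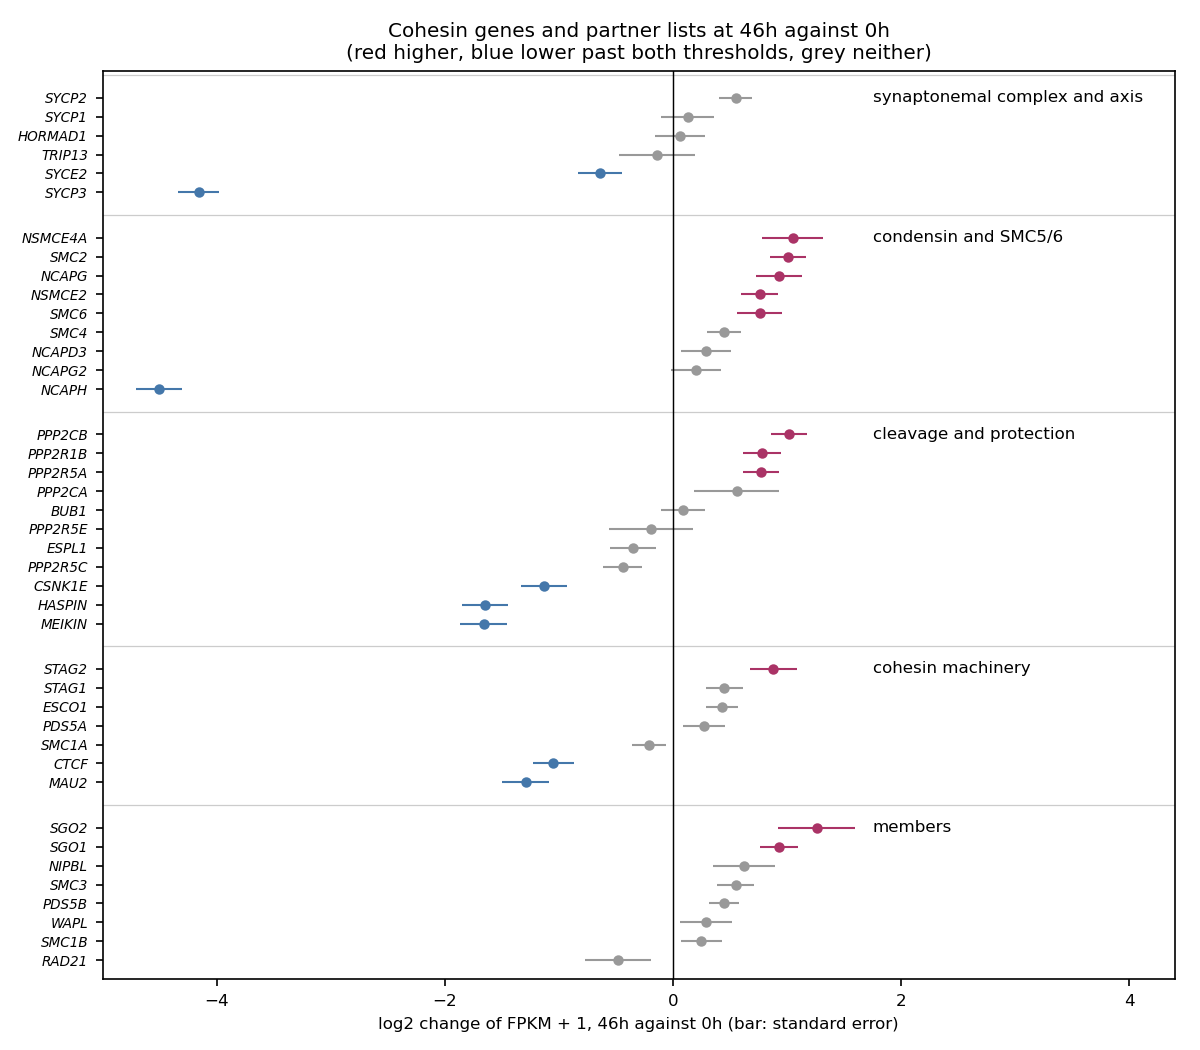
Log2 change of FPKM + 1 at 46h against 0h (horizontal axis) for the tested members and the tested genes of the partner lists (vertical axis); points are limma estimates and bars standard errors, in red where higher and blue where lower past both thresholds. SGO1 and SGO2 stand at 0.93 and 1.26, and NCAPH and SYCP3 lie beyond -4.

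Tested members were also set beside 6104 named genes by the root mean square difference of log2(FPKM + 1) over the 12 libraries, after centring each gene on its mean. Nearest to SGO1 were CENPI at 0.152 and NEMF at 0.154, against a median of 0.729 over all genes compared. CENPI had means of 15.8, 14.4 and 29.6 FPKM at 0h, 22h and 46h, and NEMF 38.6, 38.5 and 72.0 FPKM. Nearest to SGO2 were CCT8 at 0.162 and TRMT5 at 0.206, with a median of 0.979. Nearest to SMC3 were CEP162 at 0.10 and KIF15 at 0.127, with a median of 0.552. Nearest to RAD21 were CBX1 at 0.162 and SENP6 at 0.188. For NIPBL they were ZBTB34 at 0.147 and RASSF8 at 0.153, for WAPL KIF1B at 0.102 and IFT20 at 0.106, and for PDS5B CLUL1 at 0.108 and CD109 at 0.113. All genes share the same libraries, so likeness is a description of these 12 libraries.

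The size of the changes depended on how libraries were scaled. The median log2 change of all tested genes at 46h against 0h was -0.25 with FPKM as deposited, 0.06 after median-of-ratios scaling and 0.37 after quantile normalization. Higher genes made up 30.1% of called genes at 46h against 0h as deposited, 46.9% after median-of-ratios scaling and 61.7% after quantile normalization. At 46h against 22h these shares were 23.3%, 44.0% and 59.5%. At 22h against 0h they were 29.4% as deposited, 48.2% after quantile normalization and 39.5% with the mitochondrial genes removed before rescaling. SGO1 stayed between 0.83 and 1.39 and SGO2 between 0.85 and 1.66 at 46h against 0h over all alternatives run. SGO1, SGO2, SMC1B, SMC3 and PDS5B were above 0 at 46h against 22h and at 46h against 0h in each alternative that tested them, and PDS5B was not tested with the filter of 5 FPKM.

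**Figure D5:**
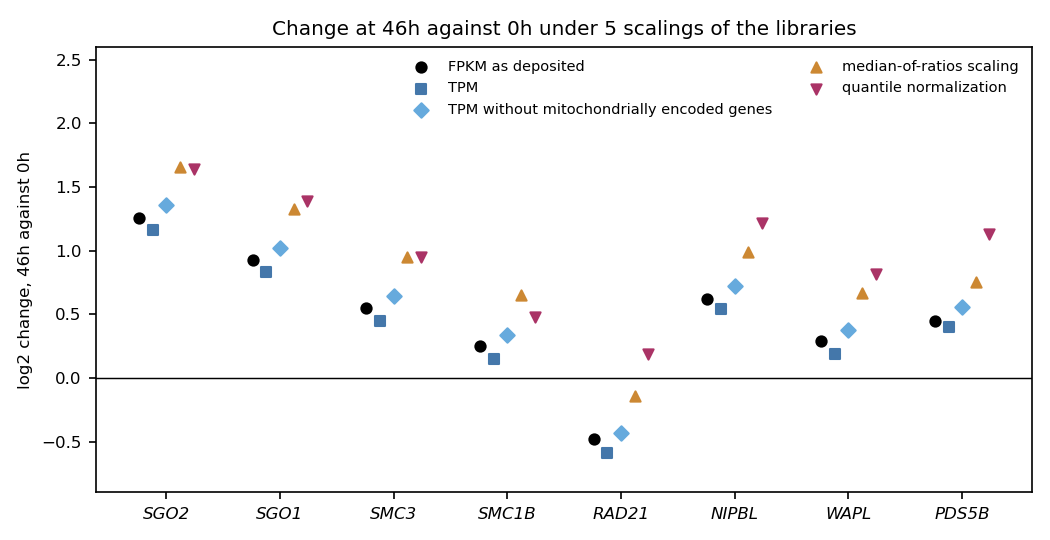
Log2 change at 46h against 0h (vertical axis) of the 8 tested genes (horizontal axis) under 5 scalings of the libraries, shown by symbol. SGO1 and SGO2 stay above 0.8 under each, and RAD21 crosses 0 after quantile normalization.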

How the data were processed

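RNA from 20 denuded oocytes per library was amplified by SMART-Seq2 with an oligo-dT primer and sequenced as paired ends. The authors trimmed reads (FastQC, Trim Galore), aligned them with STAR to Sscrofa11 and deposited FPKM values per Ensembl gene from RSEM, with 2 decimals. FPKM holds no read number, so the depth is unknown and no counting interval is given; 4 libraries per stage set the precision. Counts, which the study tested with DESeq2, were not used here.

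Identifiers were named through a gene table (15029 of 31908 named). The 7013 genes averaging 1 FPKM or more across the 12 libraries were log2 transformed with a pseudocount of 1 and fitted in limma 3.58.1 (R 4.3.3; lmFit, contrasts, eBayes with trend, two-sided), with stage as the only factor. A call needed an adjusted p under 0.05 (Benjamini-Hochberg, all genes tested) and a fold change over 1.5; the late minus early contrast needed the adjusted p only. Fold changes on this scale understate those of low genes. Members under the filter and the 18 ratio comparisons (pseudocount 0.1, Benjamini-Hochberg over the 18) were tested by exact permutation of 4 against 4 libraries. Scripts were tested on simulated data.

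Members and lists were chosen with earlier results of these data known. Named genes were all members, all of the cohesin machinery list, ratio denominators, genes of the other lists past the thresholds at 46h against 0h, and 2 nearest genes per tested member (those of SMC1B are not reported here); ESPL1 and the PP2A subunits not called were added after their values were seen. Alternatives were other pseudocounts, filters, scalings, thresholds, fits, a replicate block and leaving out each library. Sequences came from RefSeq models on Sscrofa11.1; the FPKM files carry no coordinates.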

Additional observations from a re-analysis of the deposited data

Results flagged for a closer look

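In the 30 groups of 4 libraries checked (10 genes at 3 stages), 3 held a library far from the other 3. For a gene well above 0, chance gives about 1 in 20. NIPBL was at 17.55 FPKM in the first 46h library, against 12.06 to 12.59 FPKM in the others. REC8 was at 0.03 FPKM in the second 0h library and at 0.03 FPKM in the third 46h library, with the other libraries of each stage listed at 0, and any value above 0 among zeros would stand apart in this way.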

How the results depend on the processing

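SGO1 and SGO2 remained called at 46h against 22h and against 0h in every alternative except an adjusted p under 0.01 with a fold over 2, which left 1 member, SGO2, at 46h against 0h. Member calls at 22h against 0h went from 0 to 1, NIPBL, with median-of-ratios scaling, quantile normalization and TPM without mitochondrial genes. At 46h against 22h they went from 2 to 5 with median-of-ratios scaling, quantile normalization or no fold threshold, each adding PDS5B, SMC1B and SMC3. At 46h against 0h they became 7 (median-of-ratios, adding NIPBL, PDS5B, SMC1B, SMC3 and WAPL), 6 (quantile, the same without SMC1B), 4 with TPM without mitochondrial genes (NIPBL and SMC3) and 4 with no fold threshold (PDS5B and SMC3). Leaving out single libraries gave 0 to 1 members at 22h against 0h, 2 to 3 at 46h against 22h, 2 to 4 at 46h against 0h and 1 to 3 for late minus early. At 46h against 22h RAD21 was called lower without 0h replicate 4, 22h replicate 3 or 22h replicate 4, and SMC1B higher without 22h replicate 1 or 46h replicate 3; TPM, with or without mitochondrial genes, and a fit of those stages alone also added RAD21, giving 3. The other upper ends came without the fourth 0h library, where NIPBL was called at 22h, NIPBL and SMC3 joined at 46h against 0h, and SGO2 and SMC1B joined SGO1. The cause was not tested. Partner calls at 22h against 0h became 5 with a mean of at least 5 FPKM and 1 with the stricter thresholds, which also gave 4 at 46h against 22h and 10 at 46h against 0h; at 46h against 0h they were 11 with the filter of 5 FPKM, which tests fewer genes, and 26 with quantile normalization. All genes gave 782 calls at 22h against 0h and 1649 at 46h against 22h with the stricter thresholds, and 2546 at 46h against 0h with the filter of 5 FPKM, against 1873, 2975 and 3922.

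Some uncalled changes turned sign. RAD21 at 46h against 0h went from -0.48 to 0.19 with quantile normalization. SGO2 at 22h against 0h was 0.04 (median-of-ratios), 0.14 (quantile), 0.08 with TPM without mitochondrial genes and -0.41 to 0.23 with libraries left out. WAPL at 46h against 22h was -0.05 with TPM and -0.07 to 0.16 with libraries left out; its late minus early change was 0.09, 0.18 and -0.43 to 0.02 with median-of-ratios, quantile and left-out libraries. NIPBL at 46h against 22h was 0.32, 0.45 and -0.17 to 0.18 under the same settings. SMC1A at 46h against 0h was 0.06 and 0.47 under median-of-ratios and quantile scaling. The log2 ratio of REC8 to RAD21 at 22h against 0h was 0.47 with a pseudocount of 0.01 and -0.36 to 0.25 with libraries left out. Left-out libraries also gave, for SGO2 to SGO1, -0.24 to 0.39 at 22h against 0h, -0.03 to 0.29 at 46h against 22h and -0.07 to 0.56 at 46h against 0h, for NIPBL to WAPL -0.13 to 0.03 at 46h against 22h, and for PDS5B to PDS5A -0.25 to 0.02 at 22h against 0h.

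Replicate numbers did not pair the libraries: same-number correlations ran from -0.47 to 0.38, with 3 of 12 over 0.1 and higher than any correlation with another number. All 3 were between 22h and 46h (0.38, 0.21 and 0.13 for numbers 1, 3 and 4, beside 0.01 for number 2), a hint from the data and not from the design. With the replicate block, member calls were 0, 2, 2 and 1 and calls of all genes were 1801, 2933 and 3894. Partner calls with it were 8, 11 and 17. Over all alternatives of the 18 ratio comparisons, 15 values lost an unadjusted p under 0.05, all but 1 of them for STAG3 to STAG1 plus STAG2. With 1 library left out, groups that are separate give an exact permutation p of either 0.0286 or 0.0571. Crossing 0.05 then does not tell whether the groups are separate. Another 6 gained a p under 0.05 with 1 library left out, each at an exact permutation p of 0.0286, the smallest possible there. SMC1B to SMC1A did so at 22h against 0h without 0h replicate 4 (-0.67) and at 46h against 0h without 46h replicate 3 (0.68). NIPBL to WAPL gained it without 0h replicate 3 at 22h (0.56) and 46h (0.51) against 0h. PDS5B to PDS5A gained it at 46h against 22h without 22h replicate 3 (0.54) and at 46h against 0h without 0h replicate 2 (0.46). The cause was not tested, and the paired form with 4 numbers cannot reach that threshold.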
